A study of Mus musculus with 12 samples.

Results

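The genes described here are *Hhip* and 8 other core genes of the Hedgehog pathway in mouse female germline stem cells (FGSCs): the receptor *Ptch1*, the signal transducer *Smo*, the coreceptors *Boc* and *Gas1*, the transcription factors *Gli1*, *Gli2* and *Gli3*, and their inhibitor *Sufu*. They were matched by symbol to 11 of the 41388 RefSeq transcripts listed in the count table, and 7 of the 9 genes had at least 1 count. *Hhip* was chosen on its measured values in the knockout and overexpression comparisons, so its values are given as a description with no test. The other 8 were chosen for their place in the pathway, with earlier results of these data known.

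Hedgehog ligands are secreted proteins that bind Patched receptors, with Boc, Gas1 and Cdon as coreceptors, and binding releases Smo from inhibition by Patched. Active Smo at the primary cilium frees Gli transcription factors from Sufu and limits the formation of the Gli3 repressor, and Gli activators then raise target genes such as *Gli1*, *Ptch1* and *Hhip*. Hhip sits at the cell surface and binds the ligands, so it acts as a brake on the pathway that the pathway itself induces. In the ovary, granulosa cells are known as a source of Dhh and Ihh, and the theca lineage and stroma as cells that answer them.

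RNA-seq counts came from 12 libraries of C57BL/6 FGSCs at high passage, grown on mitotically inactivated STO fibroblast feeders with leukemia inhibitory factor, epidermal growth factor, basic fibroblast growth factor and GDNF. Each of 4 groups had 3 libraries. KO carried a homozygous CRISPR/Cas9 knockout of *Stella* (listed as *Dppa3*, a maternal-effect gene) and was 1 clone grown from a single cell, and KO-con was its labelled control, whose handling is not given in the sources used here. Over had been infected with a lentivirus carrying *Stella* and selected with puromycin as a stable line, and Over-con had received the empty vector; the promoter of the vector is not given in the sources used here. Whether the 3 libraries of a group were separate cultures is not stated, so the p-values below measure the spread between these libraries, which may be technical.

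Library totals lay between 5611846 and 12866545 counts. Replicate libraries differed by more than counting noise in all 12 pairs within groups (chi-square per degree of freedom 1.93 to 12.3). *Dppa3* had 347, 371 and 285 counts in Over and 0 in the other 9 libraries, KO-con included, so the counts checked the Over label and could not check the knockout. A count of 0 allows up to 3 counts, or 0.233 to 0.535 CPM (counts scaled to library size) depending on the library. Of 16 germ cell markers, *Ddx4* (the VASA homolog) and *Gfra1* were at 0 in all libraries and *Dazl* had 1 count in 1 library; *Ddx4* and *Dazl* each have 2 listed transcripts. The germ cell sums were mostly *Ifitm3*, at 80.3 to 122.8 CPM in KO, 117 to 142 in KO-con, 149 to 163 in Over and 153 to 168 in Over-con. Fibroblast collagens were abundant: *Col1a1*, *Col1a2* and *Col3a1* together made up 784 to 1463 CPM. These are bulk libraries, in which fewer cells of a type and less RNA per cell cannot be told apart.

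The level of *Hhip* (NM_020259, mm9 chromosome 8 from 82490014 to 82581905, minus strand) separated all 4 groups. Its counts were 284, 291 and 312 in KO and 500, 590 and 391 in KO-con. They were 207, 271 and 231 in Over and 103, 77 and 138 in Over-con. Scaled by TMM over the 12 libraries, the level was highest in KO-con, at 51.8, 52.9 and 47.5 CPM (50.7 ± 2.88, SD, n = 3). KO followed at 32.8, 25.3 and 28.4 CPM (28.8 ± 3.76, SD, n = 3). Over stood at 19.2, 20.8 and 24.7 CPM (21.6 ± 2.86, SD, n = 3), and Over-con was lowest at 10.6, 13.6 and 13.4 CPM (12.5 ± 1.69, SD, n = 3). No 2 groups overlapped, although the lowest KO library (25.3 CPM) and the highest Over library (24.7 CPM) nearly met.

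*Hhip* was thus lower in the knockout than in its control and higher in the overexpressing line than in its own control. The log2 fold change was -0.82 in KO (SE 0.11, 95% interval -1.04 to -0.59) and 0.80 in Over (SE 0.14, 95% interval 0.50 to 1.09), that is 1.76-fold lower and 1.74-fold higher. Because *Hhip* was chosen on these values, the intervals are no test of a change, and the fold changes may be overstated. The effect in KO minus the effect in Over was -1.61 (SE 0.18). The control groups differed from each other by more than either perturbed line differed from its control: KO-con stood 4.11-fold above Over-con (log2 fold change 2.04, SE 0.12). Both perturbed lines lay between the controls, and the direction therefore turned with the control used. Against Over-con, KO was 1.21 higher on the log2 scale (SE 0.15), and against KO-con, Over was -1.24 (SE 0.09). Leaving out each library in turn gave -0.91 to -0.73 in KO and 0.68 to 0.88 in Over.

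**Figure D1:**
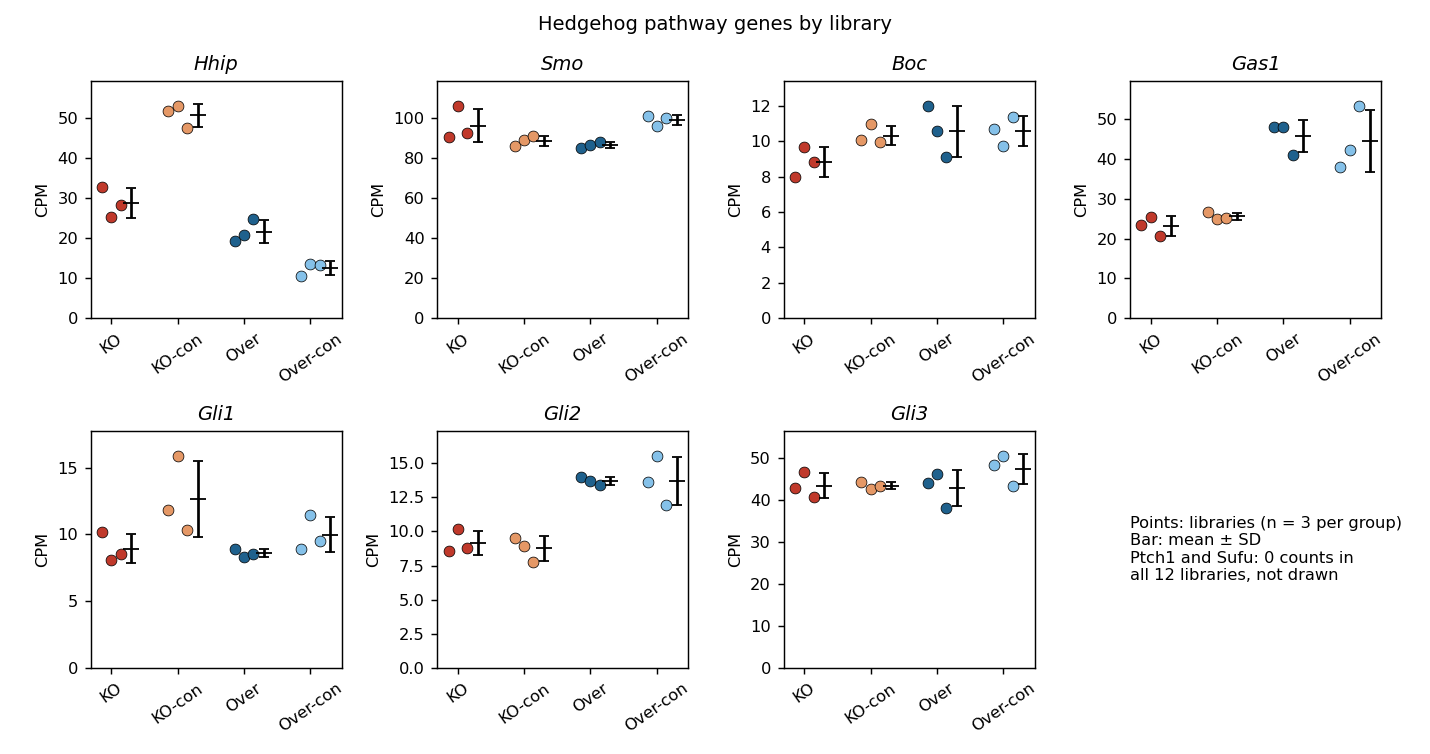
Level of each Hedgehog gene in CPM (TMM over 12 libraries, linear axis from 0) in KO, KO-con, Over and Over-con, with 1 point per library and the mean ± SD (n = 3) beside the points. *Hhip* separated the 4 groups, *Gas1* and *Gli2* were higher in both Over groups than in both KO groups, and *Smo*, *Boc* and *Gli3* stayed within narrow ranges.

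The mast cell gene *Cpa3* moved against *Hhip* in both comparisons and between the controls, and the other mast cell markers did not share 1 direction. The summed level of 9 mast cell markers was 1149 to 1230 CPM in KO and 371 to 431 CPM in KO-con, and 647 to 669 CPM in Over against 760 to 864 CPM in Over-con. The inverse pattern did not hold across all 4 groups: KO stood above both Over and Over-con in this sum and in *Hhip* alike. In KO 3 of 4 tested markers were called, all higher, beside 11.8% of all transcripts. In Over 1 of 3 was called, *Cpa3*, beside 1.65%, and the other 2 lay above 0, *Hdc* at 0.82 (edgeR adjusted p = 0.266) and *Gata2* at 0.63 (adjusted p = 0.583). Between the controls *Cpa3* was the 1 called of 3, beside 16.3%, and the other 2 again lay above 0. Nearly all of the sum was *Cpa3*, a mast cell carboxypeptidase, which rose in KO (log2 fold change 1.55, edgeR adjusted p = 2.62e-09) and fell by 0.30 on the log2 scale in Over (edgeR adjusted p = 0.0247). It was also lower in KO-con than in Over-con (398 ± 32.0 against 796 ± 57.5 CPM, SD, n = 3, edgeR adjusted p = 1.33e-08). *Fcer1a* and *Ms4a2*, which encode chains of the IgE receptor, were at 0 in all libraries. The part of these cells or genes in the level of *Hhip* was not tested.

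The start-site windows of the 3 genes whose levels differed between groups are printed because DNA methylation, which acts on CG dinucleotides, was among the other measurements of the study. Each holds 250 bases before and 50 after the RefSeq start (GRCm38.p6 promoter table), and each matched mm9 exactly once, at chr8:82581858-82582157, chr13:60278847-60279146 and chr1:120950147-120950446, all on the minus strand. Letters are lower case, 5′ to 3′, with every CG in capitals.
Hhip: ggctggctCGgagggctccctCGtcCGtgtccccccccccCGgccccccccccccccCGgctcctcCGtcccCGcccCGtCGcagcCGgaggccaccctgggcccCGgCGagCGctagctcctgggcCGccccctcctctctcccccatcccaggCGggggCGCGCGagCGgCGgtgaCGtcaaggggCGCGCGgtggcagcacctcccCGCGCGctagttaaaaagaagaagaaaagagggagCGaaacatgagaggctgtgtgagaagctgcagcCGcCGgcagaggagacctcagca
Gas1: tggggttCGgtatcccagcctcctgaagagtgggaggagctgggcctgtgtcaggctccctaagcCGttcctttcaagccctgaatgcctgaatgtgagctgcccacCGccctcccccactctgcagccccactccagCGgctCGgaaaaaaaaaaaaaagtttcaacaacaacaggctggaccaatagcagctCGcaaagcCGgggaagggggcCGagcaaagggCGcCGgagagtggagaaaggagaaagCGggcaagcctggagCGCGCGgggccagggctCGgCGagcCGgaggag
Gli2: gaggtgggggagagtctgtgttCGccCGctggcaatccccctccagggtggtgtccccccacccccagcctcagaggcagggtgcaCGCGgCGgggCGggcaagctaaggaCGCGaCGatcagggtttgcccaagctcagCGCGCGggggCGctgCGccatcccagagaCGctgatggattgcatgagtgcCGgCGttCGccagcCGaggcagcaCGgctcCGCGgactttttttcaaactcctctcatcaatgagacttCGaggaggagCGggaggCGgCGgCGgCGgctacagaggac
The *Hhip* window held 30 CG dinucleotides, more than 88.3% of the 32851 windows in the table. *Gli2* held 28 and *Gas1* 17, against a median of 7 and quartiles of 3 and 20. The 9-letter GLI consensus GACCACCCA was searched on both strands (TGGGTGGTC on the other), with no other motif searched that could overlap it. Among the 7 members with a window, 0 held it exactly and 0 held it with up to 1 letter changed. Over all windows, 0.253% held it exactly and 6.74% with up to 1 letter changed. *Gli1* and *Boc* were not matched in the table. Methylation data were not analysed here.

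Among the receptors, *Ptch1* (NM_008957 and NM_001328514, chromosome 13 from 63610261 to 63674474), which holds Smo inactive and is itself a Gli target, had 0 counts in all 12 libraries. *Sufu* (NM_015752 and NM_001025391, chromosome 19 from 46471386 to 46563294), the cytoplasmic inhibitor of Gli proteins, was also at 0 throughout. Both genes have 2 listed transcripts, and how reads shared by transcripts were counted is not given in the sources used here. Over the whole count table, 32.9% of the 7189 coding genes with 2 or more transcripts were at 0 in every library, against 22.4% of the 13620 with 1 transcript, and 22.3% against 49.2% reached 1 CPM. Neither gene can be called absent from these values, and *Ptch1* gave no reading as a pathway target.

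*Smo* (NM_176996, chromosome 6 from 29685694 to 29711365), the transmembrane protein that carries the signal inward, was the most abundant member per length, at a mean of 24.5 CPM per kb of transcript over the 12 libraries. It was followed by *Gas1* at 11.7, *Hhip* at 6.20, *Gli3* at 5.42, *Gli1* at 2.74, *Boc* at 2.26 and *Gli2* at 1.71 CPM per kb. *Smo* stood at 90.5, 106 and 92.3 CPM in KO, 86.2, 88.8 and 91.1 in KO-con, 85.1, 86.4 and 88.0 in Over, and 101, 95.9 and 99.8 in Over-con. KO overlapped KO-con, and all 3 Over libraries lay below all 3 Over-con libraries. Neither comparison passed edgeR's quasi-likelihood test, in which p-values were adjusted by the Benjamini-Hochberg method across every transcript of the fit (KO, log2 fold change 0.13, adjusted p = 0.366; Over, -0.19, adjusted p = 0.222). The difference between the effects was 0.31 (SE 0.10, edgeR adjusted p = 0.0595), and without KO library 1, the lowest of the KO libraries in *Smo*, it was called (adjusted p = 0.0434).

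The coreceptors behaved differently from each other. *Boc* (NM_172506, chromosome 16 from 44485158 to 44559010), a cell-surface protein that helps Patched bind ligand, was at 7.96 to 9.64 CPM in KO, 9.95 to 10.9 in KO-con, 9.10 to 11.96 in Over and 9.70 to 11.4 in Over-con. All KO libraries lay below all KO-con libraries, by a log2 fold change of -0.22 that did not pass (95% interval -0.54 to 0.11, edgeR adjusted p = 0.419). In Over, *Boc* differed by -0.0048 (95% interval -0.32 to 0.31, adjusted p = 0.993). *Gas1* (NM_008086, chromosome 13 from 60275766 to 60278726), a GPI-anchored coreceptor also known as a growth-arrest gene, was at 23.4, 25.5 and 20.5 CPM in KO and 26.6, 24.8 and 25.2 in KO-con. It was at 48.0, 47.9 and 41.0 CPM in Over and 37.9, 42.3 and 53.2 in Over-con. The groups overlapped within each line, and every library of the Over line and its control lay above every library of the KO line and its control.

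*Gli1* (NM_010296, chromosome 10 from 126766945 to 126778645), an activator whose own transcription is a standard readout of the pathway, was at 10.2, 8.08 and 8.54 CPM in KO and 11.8, 15.9 and 10.3 in KO-con. Its values in Over were 8.90, 8.28 and 8.57 CPM, and in Over-con 8.93, 11.5 and 9.53. KO lay below KO-con in all libraries, with the highest KO library nearly at the lowest KO-con library, and Over overlapped Over-con. The log2 fold change in KO was -0.52 (SE 0.18, edgeR adjusted p = 0.0713), which missed the threshold of 0.05. It passed without KO library 1 (adjusted p = 0.0344), without KO-con library 3 (0.0499), with no filter on low counts (0.0326) and with all 12 libraries in 1 fit (0.0367). Over 15 alternatives the adjusted p ran from 0.0326 to 0.728, the last against the control of the other line. With 1 library left out it reached at most 0.373. In Over, where *Hhip* was higher than in its control, *Gli1* was at -0.19 (95% interval -0.52 to 0.14, adjusted p = 0.666).

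*Gli2* (NM_001081125, chromosome 1 from 120730709 to 120950196), the main activator downstream of Smo, was at 8.54, 10.2 and 8.82 CPM in KO and 9.53, 8.97 and 7.77 in KO-con. It was at 13.99, 13.7 and 13.4 CPM in Over and 13.7, 15.5 and 11.96 in Over-con. As with *Gas1*, the groups overlapped within each line and the lines stood apart. *Gli3* (NM_008130, chromosome 13 from 15555068 to 15821859), whose processed form is the main repressor, ranged from 40.8 to 46.7 CPM in KO, 42.6 to 44.2 in KO-con, 38.0 to 46.2 in Over and 43.4 to 50.4 in Over-con. Its groups overlapped in every comparison, and its log2 fold change was 0.0099 in KO (95% interval -0.18 to 0.20) and -0.13 in Over (95% interval -0.34 to 0.08).

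Of the 6 other members with counts, none passed the test in either line, a count close to the share of all transcripts called. In KO against KO-con 0 of 6 were called at an adjusted p under 0.05, beside 11.8% of the 9457 transcripts tested, and 2 of 6 (*Boc* and *Gli1*) had groups that did not overlap, beside 30.5% of all. In Over against Over-con 0 of 6 were called, beside 1.65% of 9401, and 1 of 6 (*Smo*) did not overlap, beside 19.1%. The test of the difference between the effects called 0 of 6, beside 8.64% of 9903 transcripts. At an unadjusted p under 0.05, 1 of 6 passed in each of these edgeR fits, *Gli1* in KO, *Smo* in Over and *Smo* in the difference, and DESeq2 called 0 in each after adjustment. The share of all transcripts called in Over rested on the libraries included: 719 were called without Over-con library 3 and 48 without Over library 3, in place of 155, and 0 of the 6 members in either case. Median log2 fold changes of the 6 were -0.06 in KO and -0.07 in Over, against 0.0067 and -0.0012 over all transcripts tested.

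**Figure D2:**
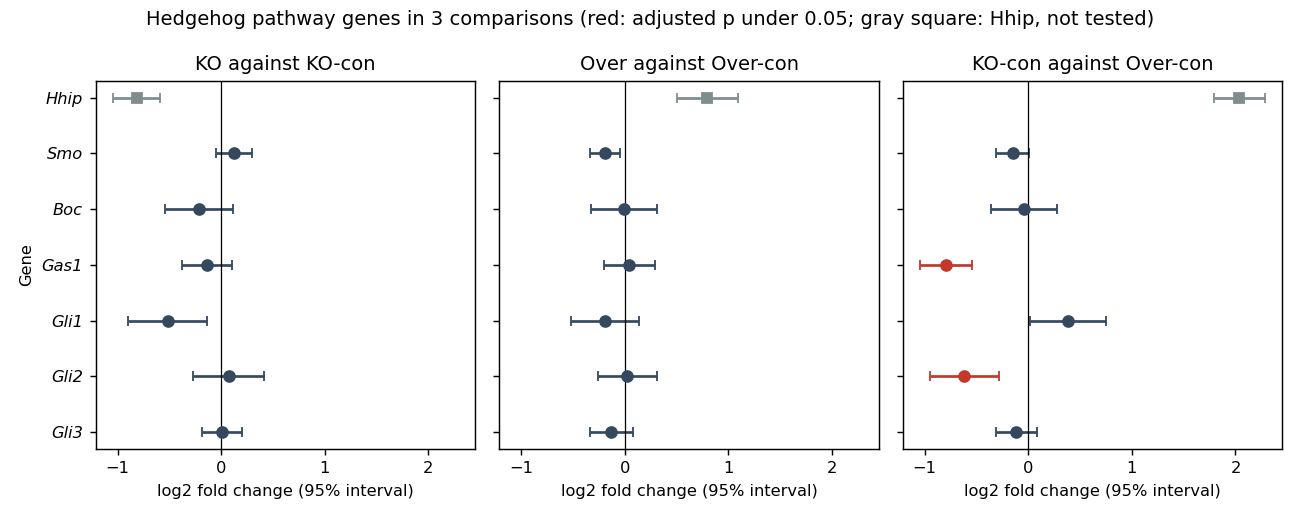
Log2 fold change with its 95% interval for each of the 7 genes with counts, in KO and Over, each against its control, and in KO-con against Over-con. *Hhip* (gray squares) lay at -0.82, 0.80 and 2.04. It was chosen on its values in KO and Over, so its intervals are no test. *Gas1* and *Gli2* (red, adjusted p under 0.05) were lower in KO-con than in Over-con.

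The control groups differed in 2 members, and line, vector and handling cannot be told apart between them. *Gas1* was 1.74-fold lower in KO-con than in Over-con (log2 fold change -0.80, SE 0.12, edgeR adjusted p = 6.9e-05) and *Gli2* 1.53-fold lower (-0.62, SE 0.16, edgeR adjusted p = 0.0102). Thus 2 of 6 were called, both lower in KO-con, beside 16.3% of 9321 transcripts, and 3 of 6 (*Smo* too) did not overlap, beside 32.3%. The adjusted p of *Gas1* ran from 6.01e-10 to 0.0011 over 14 alternatives, and that of *Gli2* from 0.0019 to 0.0542, the last without KO-con library 3. Set against the control of the other line, KO was -0.94 in *Gas1* (edgeR adjusted p = 0.000592) and -0.56 in *Gli2* (0.0514), and Over was 0.85 in *Gas1* (6.67e-08), 0.64 in *Gli2* (0.000802) and -0.57 in *Gli1* (0.00779). *Hhip*, at 2.04, stood the other way from *Gas1* and *Gli2* between these controls.

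Several fibroblast genes, collagens among them, also differed between the controls. The summed level of 12 fibroblast and feeder markers was 1217 to 1419 CPM in KO-con and 1732 to 1915 in Over-con, 1097 to 1551 in KO and 1519 to 1577 in Over. Of 9 tested, 5 were called lower in KO-con than in Over-con and 0 higher, beside 16.3% of all transcripts, among them *Col1a1* (log2 fold change -0.47, edgeR adjusted p = 0.000326) and *Col3a1* (-0.99, adjusted p = 3.58e-08). *Thy1* (-0.11, adjusted p = 0.539) and *Dcn* (-0.15, adjusted p = 0.380) were not called. Within the lines, 2 of 9 were called lower and 1 higher in KO, beside 11.8% of all transcripts called in either direction. In Over 1 of 9 was called, lower, beside 1.65% of all transcripts. There 0 of 9 lay above 0 (median log2 fold change -0.24), while *Gas1* and *Gli2* were at 0.04 and 0.03. *Pdgfrb* was at 0 in all libraries, and 1 transcript of *Pdgfra* stood at 2.06 to 4.25 CPM in KO-con and 2.47 to 3.21 in Over-con. The blood cell marker sums were 868 to 995 CPM in KO-con and 1126 to 1236 in Over-con, against 977 to 1129 in KO and 977 to 1060 in Over. Of 4 blood cell markers tested between the controls, 2 were called lower in KO-con and 0 higher, beside 16.3% of all transcripts. *Ptprc* was among those called (-0.54, edgeR adjusted p = 0.000712), and 1 of the 4 lay above 0. Granulosa and theca markers summed to 110 to 118 CPM in KO-con, 79.8 to 98.2 in KO, 68.5 to 72.6 in Over and 76.1 to 89.0 in Over-con, with *Foxl2*, *Fshr*, *Lhcgr* and *Nr5a1* at 0. The part of feeder or other cells in the levels of *Gas1*, *Gli2* and *Hhip* was not tested.

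**Figure D3:**
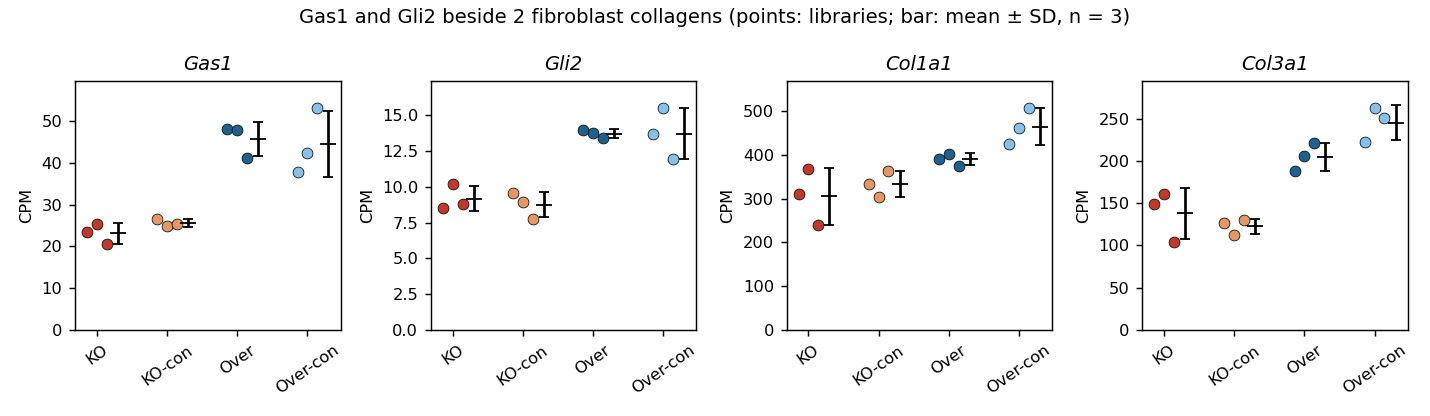
Levels in CPM (linear axes from 0) of *Gas1* and *Gli2* beside the fibroblast collagens *Col1a1* and *Col3a1*, 1 point per library with the mean ± SD (n = 3) for KO, KO-con, Over and Over-con. In all 4 genes drawn the KO and KO-con means lay below the Over and Over-con means; other markers of the list did not all do so, and *Fbn1* stood at 132 CPM in KO and 116 in Over and *Thy1* at 45.9 and 35.9.

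The other genes of the pathway came from 5 lists of 76 genes. Of the 8 genes for ligands and their release, *Shh* had 0 counts in every library, *Ihh* and *Dhh* at most 6, *Scube2* at most 9 and *Scube3* at most 15, while *Disp1* and *Scube1*, with several listed transcripts each, were at 0. *Shh* and *Dhh*, with 1 listed transcript each, were thus at or near the floor of 3 counts. *Ihh* was near it too, but has 2 listed transcripts and cannot be called absent from these values. *Hhat*, the acyltransferase that puts palmitate on Hedgehog ligands, was higher in KO: 27.5, 30.2 and 29.0 CPM against 19.2, 18.3 and 19.7 in KO-con (log2 fold change 0.61, SE 0.11, edgeR adjusted p = 0.00139). It was the 1 gene called of 2 tested, beside 11.8% of all transcripts, and in Over it was 0.03 (adjusted p = 0.944). Of 6 other receptors and coreceptors 3 were tested, and 0 were called in KO or in Over, beside 11.8% and 1.65% of all transcripts. The coreceptor *Cdon* was lower in KO-con than in Over-con (-0.45, adjusted p = 0.00502), as *Gas1* was. It was the 1 called of 3 tested between the controls, beside 16.3% of all transcripts.

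Of 24 genes of signal transduction between Smo and Gli, 13 were tested. In KO 1 was called, a transcript of *Prkacb* (NM_001164200), a catalytic subunit of the protein kinase A that marks Gli proteins for processing. It was at 13.7, 12.7 and 16.0 CPM in KO and 10.4, 6.72 and 7.65 in KO-con (log2 fold change 0.79, SE 0.17, edgeR adjusted p = 0.00727), while a second tested transcript of *Prkacb* was at -0.35 (adjusted p = 0.397). In Over 0 were called. Between the controls *Stk36*, the Fused kinase homolog, and *Kctd11*, an adaptor that inhibits the pathway through histone deacetylase, were lower in KO-con (-0.56, adjusted p = 0.0168, and -0.45, adjusted p = 0.0222). Of 15 genes of transport in the cilium 10 were tested, and *Ift88* (0.41, adjusted p = 0.0111) and *Ift172* (0.24, adjusted p = 0.0363), subunits of the anterograde train, rose in KO, 0 were called in Over, and *Ift140* was lower in KO-con than in Over-con (-0.28, adjusted p = 0.0229). Over all transcripts, 11.8% were called in KO and 16.3% between the controls.

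Of 23 known or proposed Gli targets, 15 were tested in KO, and 4 fell and 1 rose, beside 11.8% of all transcripts called in either direction. *Bcl2*, an inhibitor of apoptosis, was at 676, 624 and 652 CPM in KO and 999, 971 and 1053 in KO-con (log2 fold change -0.62, SE 0.07, edgeR adjusted p = 2.26e-05). *Ccnd2* (-0.34, adjusted p = 0.00294) and *Cdk6* (-0.31, adjusted p = 0.0049), a cyclin and a kinase of the G1 phase, fell by less. *Prdm1*, which encodes BLIMP1 and also stood on the germ cell list, had 2, 5 and 3 counts in KO and 19, 21 and 14 in KO-con (-2.48, SE 0.44, adjusted p = 0.00147). *Igfbp6*, named after its values were seen, rose (0.46, adjusted p = 0.00911). In Over 1 of 16 tested was called, beside 1.65% of all transcripts: *Ccnd2*, which was lower there too (-0.24, adjusted p = 0.0389). *Bcl2* was at -0.01 and *Cdk6* at -0.02 in Over, where *Hhip* was higher than in its control.

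Between the controls 6 of 15 tested targets were called, beside 16.3% of all transcripts, and 3 of them were higher in KO-con, as *Hhip* was: *Bcl2* (log2 fold change 0.70, edgeR adjusted p = 4.82e-07), *Cdk6* (0.56, adjusted p = 1.74e-05) and *Prdm1* (1.40, adjusted p = 0.0175). Another 3 were lower, *Abcg2* (-1.05, adjusted p = 0.00762), *Sfrp1* (-0.33, adjusted p = 0.0148) and *Osr1* (-0.27, adjusted p = 0.0467), the last named after its values were seen. The median log2 fold change of the tested targets was -0.01 in KO, -0.01 in Over and -0.08 between the controls, with called targets in both directions in KO and between the controls.

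Calls of the listed genes differed in how far they rested on single libraries. In KO, *Hhat*, *Prkacb*, *Bcl2*, *Ccnd2*, *Cdk6* and *Prdm1* were called with any 1 library left out, whereas *Ift88* was not called without KO-con library 3 (edgeR adjusted p = 0.0645) and *Ift172* not without KO library 2 or any 1 of the KO-con libraries (adjusted p up to 0.189). *Ccnd2* in Over was called in 1 of the 6 such fits, the one without Over-con library 3. Between the controls, *Bcl2*, *Cdk6*, *Cdon* and *Gas1* were called in all 6 fits. *Kctd11* lost its call without Over-con library 3 or any 1 KO-con library, *Ift140* without Over-con library 1 or any 1 KO-con library, and *Stk36* without KO-con library 2 or 3 or Over-con library 1 (adjusted p up to 0.0950, 0.102 and 0.0870). *Prdm1* lost it without library 1 or 2 of either control, *Sfrp1* without KO-con library 1 or 2, and *Abcg2* without Over-con library 1 (adjusted p up to 0.0784, 0.0801 and 0.0697).

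**Figure D4:**
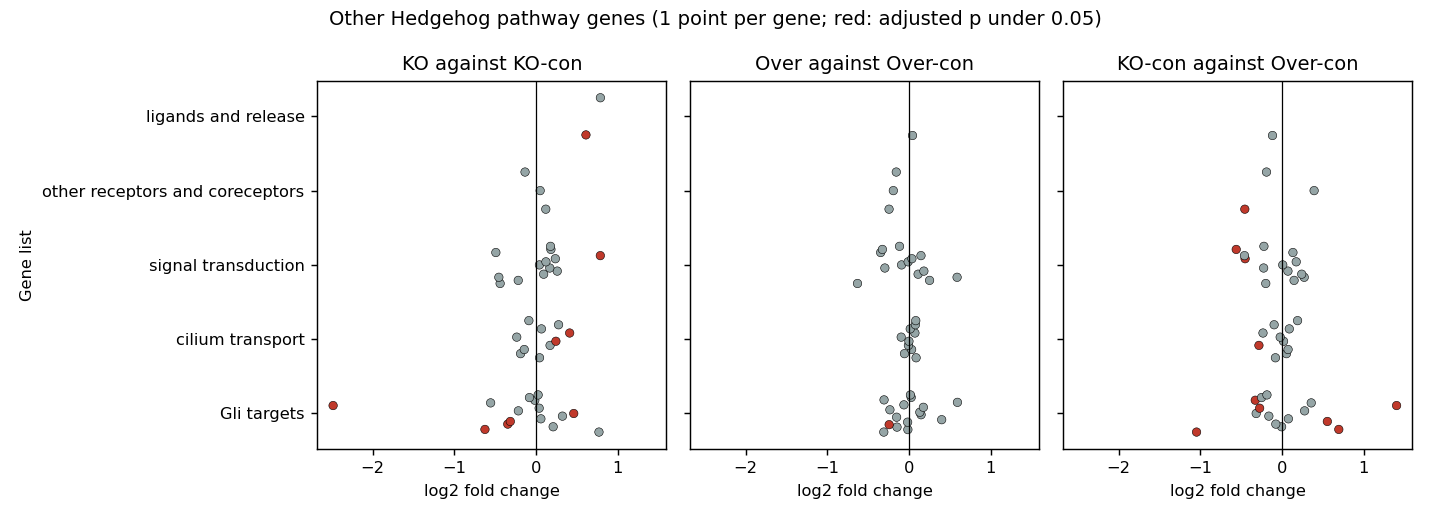
Log2 fold change of each tested gene of 5 pathway lists (1 point per gene, red where the adjusted p was under 0.05) for the knockout, the overexpressing line and the pair of controls. In KO 9 genes were called, beside 11.8% of all transcripts, and in Over 1, *Ccnd2*, beside 1.65%. Genes tested in KO were 2 for ligands, 3 receptors, 13 of signal transduction, 10 of the cilium and 15 targets. In Over they were 1, 3, 13, 10 and 16 in the same order. The point farthest left in KO is *Prdm1*, at -2.48.

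Across the 12 libraries, the transcripts whose log2 CPM followed *Hhip* most closely, of 9902, were *Akr1c13* (Pearson's r = 0.973), *Abcg1* (0.970), *Cyb5b* (0.963), *Cct4* (0.947) and *Hes1* (0.947). The lowest values were those of *Peak1* (-0.965), *Sgsm2* (-0.961) and *Gpsm2* (-0.960). The 12 points form 4 clusters of libraries that share a line, so these values largely rank transcripts by their 4 group means. No other member was among the closest. *Gli1* had r = 0.50 with *Hhip*, above 85.8% of transcripts, *Boc* -0.27, *Gli3* -0.47, *Smo* -0.50, *Gas1* -0.72 and *Gli2* -0.80. With the group means removed, *Gli1* was at 0.55, *Gas1* at 0.04, *Gli2* at -0.17, *Boc* at -0.65, *Gli3* at -0.54 and *Smo* at -0.51. The negative values of *Gas1* and *Gli2* thus shrank without the differences between groups, and those of *Boc*, *Gli3* and *Smo* did not.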

How the data were processed

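RNA-seq of 12 FGSC libraries was analysed, with groups and replicate numbers taken from the sample titles. The libraries were made with a stranded mRNA kit. The authors trimmed reads, aligned them to mm9 with HISAT2, counted them on RefSeq transcripts and deposited the raw counts; the strand setting, annotation release and treatment of shared reads are not given in the sources used here. Of 41388 transcripts, 41181 matched a symbol in NCBI RefSeq's gene table (assembly GRCm38.p6); positions came from the mm9 annotation (GENCODE M1).

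Each comparison was fitted on its 6 libraries, and the difference between effects on all 12, with edgeR 4.0.16 (TMM, filterByExpr, glmQLFit, glmQLFTest, Benjamini-Hochberg); a transcript was called at an adjusted p under 0.05. Levels are CPM after TMM over 12 libraries, and CPM per kb used the longest annotated transcript. Likeness to *Hhip* was Pearson's r of log2 CPM with a prior count of 2. Named genes were the 9 members, the ligands by their counts, up to 4 called genes with non-overlapping groups per pathway list and comparison by adjusted p, the 5 transcripts most and 3 least like *Hhip*, and fixed markers of 5 cell type lists. The members and lists were chosen with earlier results of these data known. Every transcript that passed the filter was tested, and a list counted 1 transcript per gene, that with the most counts.

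Alternatives were a fit with DESeq2 1.42.0; normalization by DESeq2 size factors or by library totals; testing without a filter or with a minimum of 10 counts in each library; a single fit of all 12 libraries; a replicate block; counts per gene; leave-one-out; the control of the other line; and the study's added threshold of an absolute log2 fold change over 1. For likeness they were a prior count of 0.5, Spearman's rho and values with group means removed. The steps were tested on simulated data. Library totals had a median of 10221419 counts, and floors of 3 counts cover counting error only. Scripts ran in Python 3.11.15 (numpy 2.4.6, pandas 2.3.3, matplotlib 3.10.9) and R 4.3.3.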

Additional observations from a re-analysis of the deposited data

Results flagged for a closer look

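*Hhip* moved in opposite directions in the knockout and in the overexpressing line, each against its own control, with a difference between the effects of -1.61 on the log2 scale. All 3 KO libraries lay below KO-con and all 3 Over libraries above Over-con, and this difference was not tested because the gene was chosen on these values.

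For 7 genes of the pathway lists the effects in both lines differed by edgeR's test of the difference, beside 8.64% of 9903 transcripts. They were 1 of 2 tested genes for ligands and release, 1 of 13 of signal transduction and 5 of 17 Gli targets. Among other receptors and coreceptors 0 of 3 differed, and among genes of cilium transport 0 of 10. The effect in KO minus the effect in Over was -2.44 for *Prdm1* (SE 0.67, adjusted p = 0.0274), which rests on 2 to 21 counts per library. It was -0.61 for *Bcl2* (SE 0.09, adjusted p = 0.000214) and -0.30 for *Cdk6* (SE 0.09, adjusted p = 0.0486). For *Hhat* it was 0.58 (SE 0.16, adjusted p = 0.0287). The other 3, named after their values were seen, also had effects that were higher in KO: *Igfbp6* 0.70 (SE 0.18, adjusted p = 0.0175), *Evc* 0.46 (SE 0.11, adjusted p = 0.00855) and *Ccnd1* 0.36 (SE 0.10, adjusted p = 0.0237). *Prdm1*, *Bcl2*, *Cdk6* and *Hhat* were called in KO, and in Over 3 of them were not called and *Prdm1* did not pass the filter on low counts. With 1 library left out, *Bcl2* was called in all 12 fits (adjusted p 7.72e-05 to 0.00111), while *Prdm1* lost its call in 8, *Hhat* in 6 and *Cdk6* in 10 (adjusted p up to 0.109, 0.0882 and 0.118).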

How the results depend on the processing

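With the control of the other line, *Hhip* turned to 1.21 in KO and -1.24 in Over, and 5 genes called under either control changed sign: *Bcl2* to 0.060, *Cdk6* to 0.23 and *Cdon* to -0.35 in KO, and *Abcg2* to 0.74 and *Ift140* to 0.28 in Over. That setting called 1 member, 5 pathway genes and 737 transcripts in KO, and 3 members, 11 pathway genes and 2026 transcripts in Over. At an absolute log2 fold change over 1, calls of transcripts fell to 161 in KO, 16 in Over and 201 between the controls, calls of pathway genes to 1, 0 and 2, and calls of members between the controls to 0. In KO 1 member, *Gli1*, was called with no filter and with all 12 libraries in 1 fit. In Over 302 transcripts were called with no filter, and 0 pathway genes with library totals. Of the 5 transcripts most like *Hhip*, 0 stayed in the top 5 with Spearman's rho, although their rho was still 0.930 to 0.965. With group means removed 0 stayed, and their r ran from -0.039 (*Hes1*) to 0.723 (*Cyb5b*).

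Leaving out each library in turn gave 0 to 1 members and 613 to 1271 transcripts in KO, 48 to 719 transcripts and 0 to 4 pathway genes in Over, 1 to 2 members, 882 to 1988 transcripts and 4 to 11 pathway genes between the controls, and 0 to 1 members and 536 to 1126 transcripts for the difference between effects. The cause of these changes was not tested, and each such fit also held fewer libraries.

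Replicate numbers did not pair the libraries: same-numbered deviations had r of -0.152 to 0.0568, and 1 of 12 libraries correlated best with its own number. The replicate block gave 67 transcripts and 0 pathway genes in Over, where *Ccnd2* (adjusted p = 0.170) was no longer called, and *Ift172* was no longer called in KO (adjusted p = 0.0957). Counts of 0 to 15 in the ligand genes and of 2 to 21 in *Prdm1* limit what can be read from them.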
